A study of Mus musculus with 12 samples.

Results

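The oxysterol-binding protein family was followed through 4 sorted B cell groups as 10 genes, Osbp, Osbpl1a, Osbpl2, Osbpl3, Osbpl5, Osbpl6, Osbpl8, Osbpl9, Osbpl10 and Osbpl11. A member was taken as any probe set whose only gene symbol was one of these names, which gave 23 of the 34945 probe sets with a single symbol and 10 of the 18193 genes. The family was selected on the log2 intensities of Osbpl6, which were higher in old than in young B1 cells. Values that chose it are therefore given without a test, and no member was tested between old and young B1 cells.

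Total RNA of sorted B cells from female C57BL/6 mice was hybridised to 12 one-colour expression arrays, 3 in each of 4 groups. The groups were old ABC, age-associated B cells of the spleen; old B1, peritoneal B1 cells whose sample titles read B1a; young B1, peritoneal B1 cells of mice aged 8 weeks; and old FO, follicular B cells of the spleen. Old mice were more than 15 months of age, and no allele or treatment is named for any group. The labels name neither the sort markers nor whether replicates came from separate mice or pools. The p-values and standard errors rest on the spread among arrays within groups, pooled over all 4 groups. That spread takes in groups outside a comparison and may be technical. Organ and cell type cannot be told apart in any comparison of B1 cells with a splenic group, because B1 cells came from the peritoneal cavity.

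Oxysterol-binding proteins and their relatives, the ORPs, carry sterols and other lipids between membranes that lie close together. Many ORPs exchange a sterol or phosphatidylserine for a phosphoinositide, and are held at the endoplasmic reticulum by binding VAP proteins or by a membrane anchor of their own. Oxysterols, oxidised forms of cholesterol, also guide B cells within lymphoid tissue through the receptor Gpr183.

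The labelled identities were checked on marker lists, summed as linear intensity per array. The 7 measured B cell identity genes summed to between 42352 and 50595 on every array. Age-associated B cell markers summed to 12399 to 16259 in old ABC, against 1430 to 2575 in the other groups, and follicular markers to 16453 to 18366 in old FO, against 2387 to 4564 elsewhere. The B1 list summed to 9808 to 13484 in old B1 and 9879 to 10315 in young B1, against 664 to 1260 in old FO, and was at 6543 to 7032 in old ABC. Neutrophil genes, 8 measured, summed to 35028, 20693 and 26297 in old ABC, against 443, 1984 and 9959 in old FO and 157 to 391.9 in old B1. The 6 T cell genes summed to 2438 to 3032 in old ABC and 425 to 2315 in old B1, against 1016 to 2046 in old FO. The 4 NK cell genes summed to 1154 to 2363 in old ABC, and the 5 dendritic cell genes to 497 to 741, against 594 to 710.3 and 309.9 to 366 in old FO. The 3 erythroid and platelet genes lay between 122 and 1915 on every array. A pair of arrays stood apart. Old B1 replicate 3 and old FO replicate 2 had 75th percentile intensities of 346 and 378, against 400.1 to 412 on the other 10 arrays, and array weights of 0.102 and 0.349. Results that rest on these arrays are given with and without them.

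RefSeq promoters (build GRCm38.p6) were searched for 8 of the 10 members, with 12 transcription starts. Osbpl1a and Osbpl10 were not among them, so nothing is said here of their promoters. The 250 bases before a start are printed for Osbpl6, which chose the family, and for Osbpl3, which had the widest range of group means among the other members; Osbp, bright in every group, is shown beside them. The windows are chr2:76406258-76406507 and chr2:76498756-76499005 on the plus strand for Osbpl6, chr6:50456171-50456420 on the minus strand for Osbpl3 and chr19:11965594-11965843 on the plus strand for Osbp. Each is written 5′ to 3′ along its gene. Capitals mark the GC box GGGCGG and the CCAAT box CCAAT, on either strand.
Osbpl6, upstream start: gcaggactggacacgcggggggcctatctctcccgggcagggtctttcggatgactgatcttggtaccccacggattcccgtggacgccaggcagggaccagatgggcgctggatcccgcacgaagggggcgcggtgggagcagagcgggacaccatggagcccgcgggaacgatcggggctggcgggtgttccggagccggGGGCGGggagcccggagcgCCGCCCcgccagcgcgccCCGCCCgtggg
Osbpl6, downstream start: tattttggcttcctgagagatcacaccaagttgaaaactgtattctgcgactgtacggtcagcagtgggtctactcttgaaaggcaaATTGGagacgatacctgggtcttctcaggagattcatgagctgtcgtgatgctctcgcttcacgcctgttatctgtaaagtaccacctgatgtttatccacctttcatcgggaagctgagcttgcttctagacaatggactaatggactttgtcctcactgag
Osbpl3: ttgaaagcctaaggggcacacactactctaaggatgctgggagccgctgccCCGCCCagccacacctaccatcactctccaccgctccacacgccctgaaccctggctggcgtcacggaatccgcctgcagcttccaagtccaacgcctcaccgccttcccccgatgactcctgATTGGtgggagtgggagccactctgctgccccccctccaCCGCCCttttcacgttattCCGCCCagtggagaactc
Osbp: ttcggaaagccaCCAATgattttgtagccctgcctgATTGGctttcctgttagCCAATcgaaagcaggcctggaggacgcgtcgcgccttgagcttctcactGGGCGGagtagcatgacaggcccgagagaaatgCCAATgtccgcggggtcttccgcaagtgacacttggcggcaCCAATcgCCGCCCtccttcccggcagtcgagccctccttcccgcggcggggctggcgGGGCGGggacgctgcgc

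The upstream Osbpl6 window was 74.0% G or C with 29 CpG dinucleotides, whereas the downstream one was 46.4% with 7. The median over 32851 promoters of the same length was 52.4% and 6. The upstream Osbpl6 window held 3 GC boxes and 0 CCAAT boxes, and the downstream one 0 GC boxes and 1 CCAAT box. Osbpl3 had 62.8% G or C, 3 GC boxes and 1 CCAAT box. Osbp had 64.0%, 3 GC boxes and 5 CCAAT boxes. A GC box occurred in 32.7% of all promoters and a CCAAT box in 33.8%. The sterol regulatory element searched, TCACNCCAC, and the T-box site, AGGTGTGA, each occurred in 1.1% of promoters and matched none of the 12 member windows, nor did TATAAA, found in 12.4%. The E-box CACGTG, in 6.0% of promoters, occurred in a window of Osbpl5 and in that of Osbpl8. Both strands were searched.

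Osbpl3 and Osbpl1a were higher in both old ABC and old B1 than in old FO, and Osbpl5 was lower in old B1 than in either splenic group. Values below are log2 intensities, and a member was called where the Benjamini-Hochberg adjusted p of limma over all 18193 genes was under 0.05. Between old ABC and old FO, 2 of 10 members were called, Osbpl1a and Osbpl3, both higher in old ABC, against 9.96% of all genes called (7.12% higher and 2.84% lower). Between old ABC and old B1, 1 of the 9 members tested was called, Osbpl5, higher in old ABC, against 12.8% of all genes (7.4% higher and 5.43% lower). Between old B1 and old FO, 4 of 9 were called, against 16.4% of all genes (8.4% higher and 8.02% lower). There Osbpl1a and Osbpl3 were higher and Osbpl5 and Osbpl8 lower in old B1. The median difference over members was -0.07 between old ABC and old FO and -0.09 between old B1 and old FO, against -0.03 and -0.04 over all genes. Without old B1 replicate 3 and old FO replicate 2 the counts were 2, 1 and 3 in the same order, Osbpl8 no longer being called, against 16.3%, 17.5% and 22% of all genes. Between old and young B1, 0.291% of all genes were called, or 1.14% without those arrays.

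**Figure D1:**
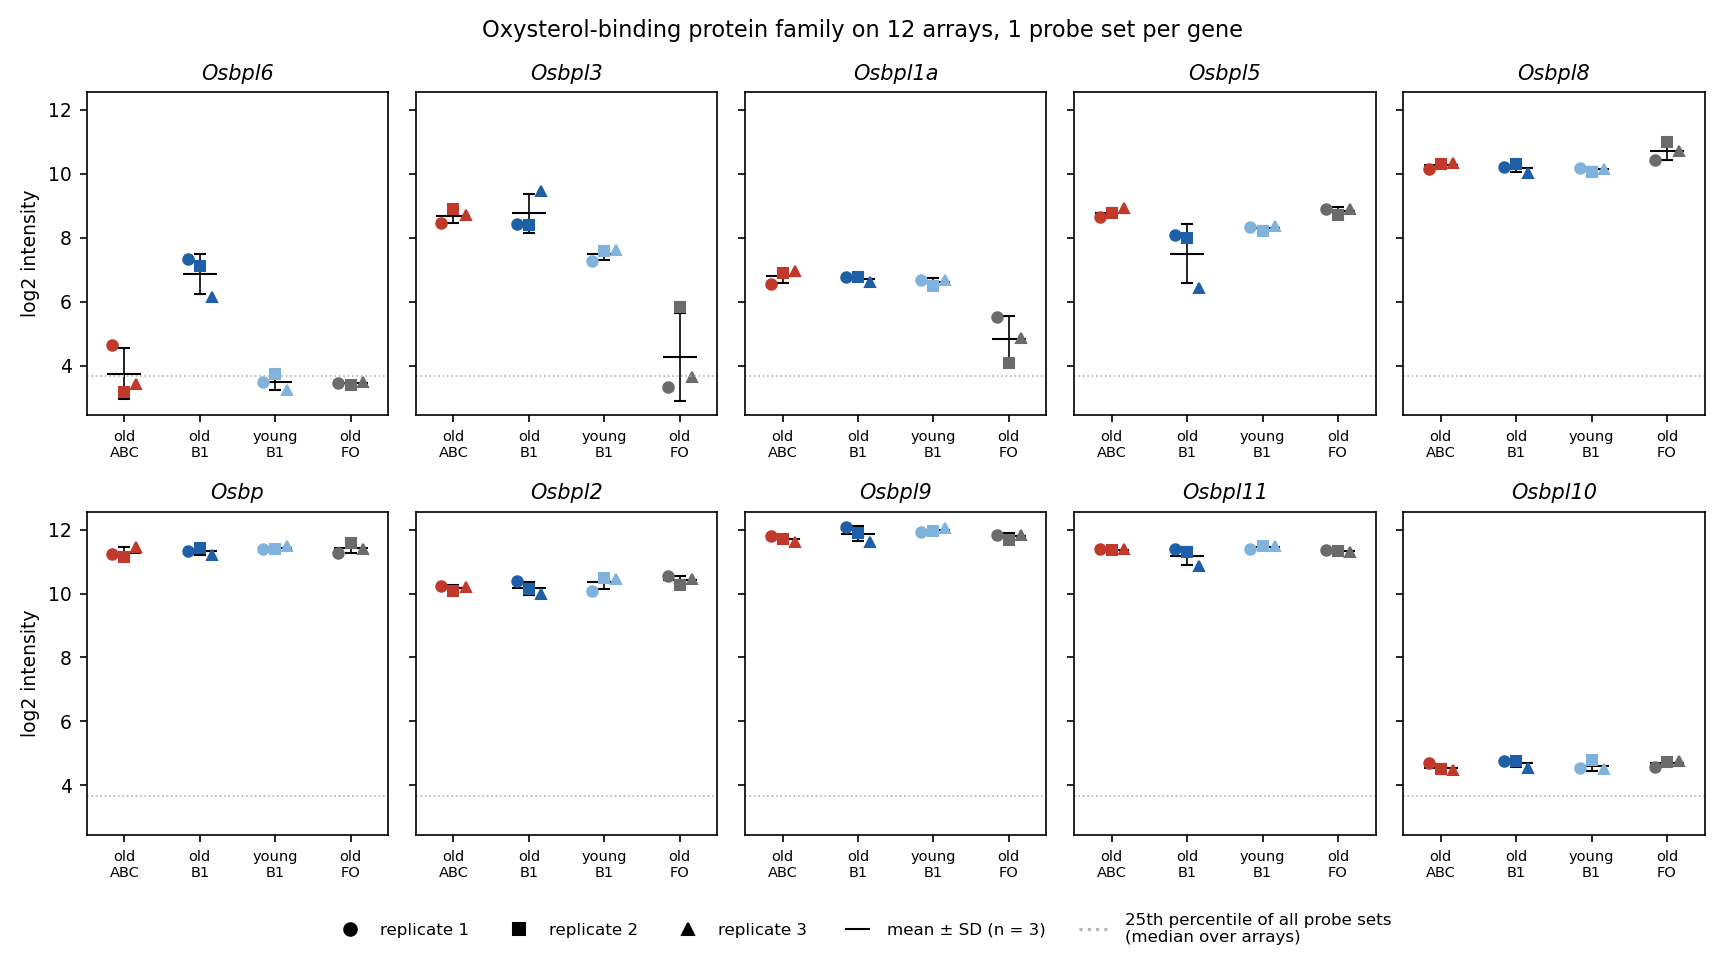
Log2 intensity of the chosen probe set of each family member on all 12 arrays, with old ABC, old B1, young B1 and old FO side by side, points for arrays and lines for the group mean ± SD (n = 3). Osbpl6 stands high on the 3 old B1 arrays, between 6.15 and 7.33, and Osbpl3 and Osbpl1a are lowest on the old FO arrays.

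**Figure D2:**
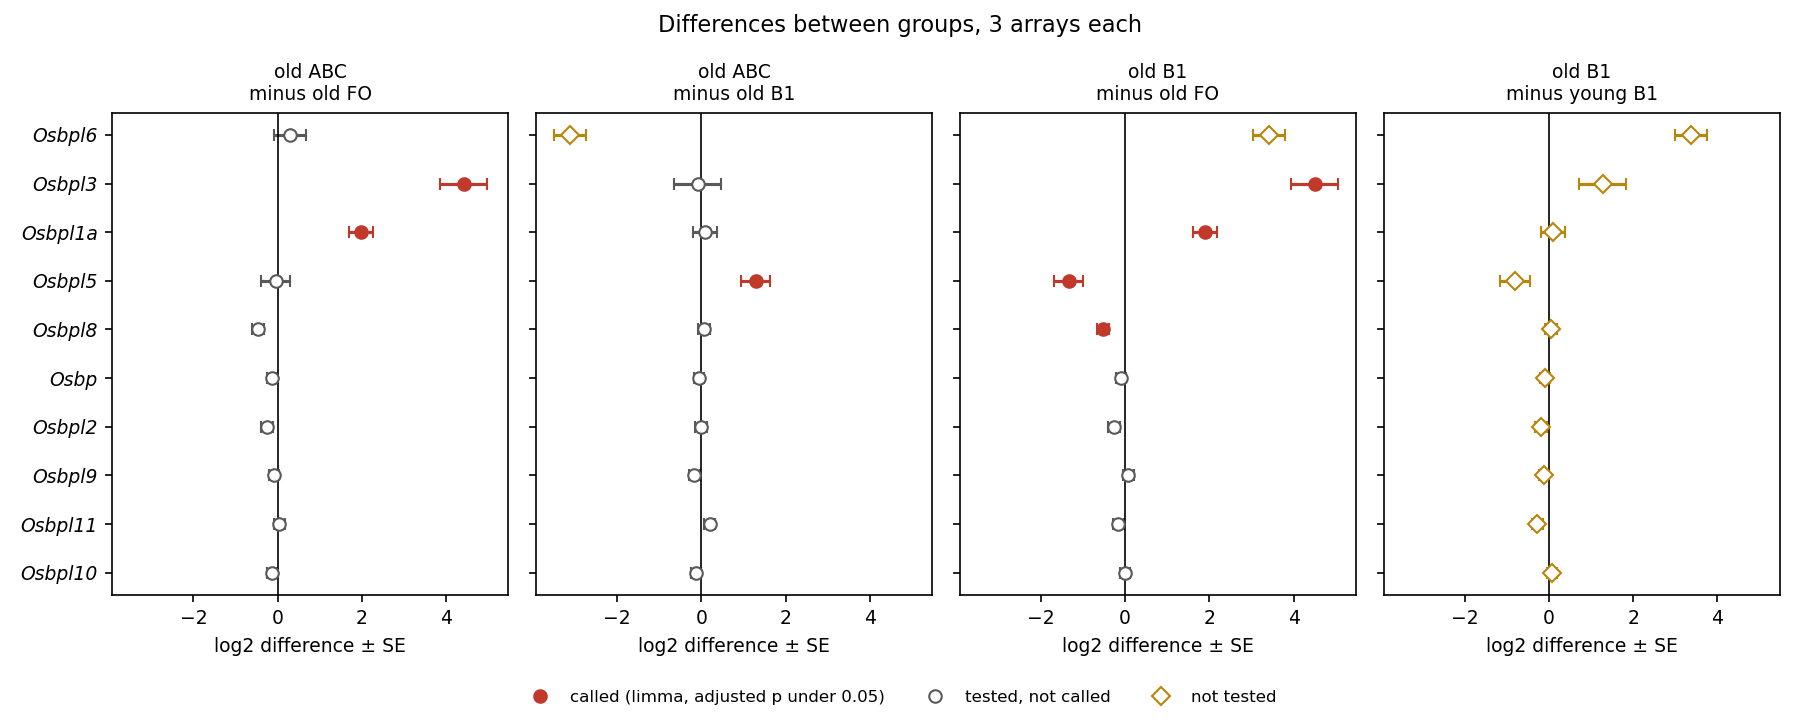
Log2 differences of each member with standard errors for old ABC against old FO, old ABC against old B1, old B1 against old FO and old B1 against young B1. Osbpl3 lies at 4.41 and 4.50 in both comparisons with old FO, while Osbpl6 lies at 3.38 between old and young B1 cells, a value that was not tested.

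Osbpl6 belongs to the subfamily of Osbpl3 and Osbpl7 and has been linked to phosphoinositide turnover and cholesterol handling. Its probe set 1449627_at had 7.33, 7.11 and 6.15 in old B1, against 3.49, 3.73 and 3.22 in young B1. It had 4.64, 3.16 and 3.43 in old ABC, against 3.47, 3.39 and 3.48 in old FO. All 3 old B1 arrays were above the other 9 arrays, with old B1 replicate 3 the lowest of the group, and old ABC replicate 1 was above the rest of the remaining arrays. In order, the group means were 6.86 ± 0.63 in old B1, 3.75 ± 0.79 in old ABC, 3.48 ± 0.26 in young B1 and 3.44 ± 0.05 in old FO (SD, n = 3 each), and the lower 3 lay within one another's spread. These values described old B1 as 3.38 higher than young B1 (10.4-fold) and 3.42 higher than old FO. Without old B1 replicate 3 the difference from young B1 was 3.74.

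The low side of that difference was poorly measured. The probe set was under its own array's 25th percentile on 2 of 3 old ABC, 2 of 3 young B1 and 3 of 3 old FO arrays, so the size of the fold is not exact. In the comparison that did not choose Osbpl6, old ABC against old FO, the difference was 0.30 ± 0.38 (SE, 95% interval -0.54 to 1.15, limma adjusted p = 0.769). Single old ABC arrays therefore differed from one another by more than the group did from old FO.

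The other Osbpl6 probe sets showed the old B1 pattern unevenly. Probe set 1457881_at had 6.74, 6.83 and 5.67 in old B1, against 3.40, 3.71 and 3.58 in young B1. Probe set 1456495_s_at had 6.07, 6.32 and 3.98 in old B1, against 3.03, 2.81 and 3.02 in young B1. For 1438717_a_at the old B1 values were 4.87, 4.63 and 3.02, against 2.93, 2.96 and 2.72 in young B1. Replicate 3 was the lowest old B1 array on all 3 of these. For 1438717_a_at that array lay under its own 25th percentile, at 3.02, only just above the highest young B1 value of 2.96. The 3 young B1 values of 1438717_a_at and of 1456495_s_at were all under that percentile. The fifth, 1451831_at, ranged only between 3.15 and 3.83 over the 12 arrays and did not separate the groups.

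**Figure D3:**
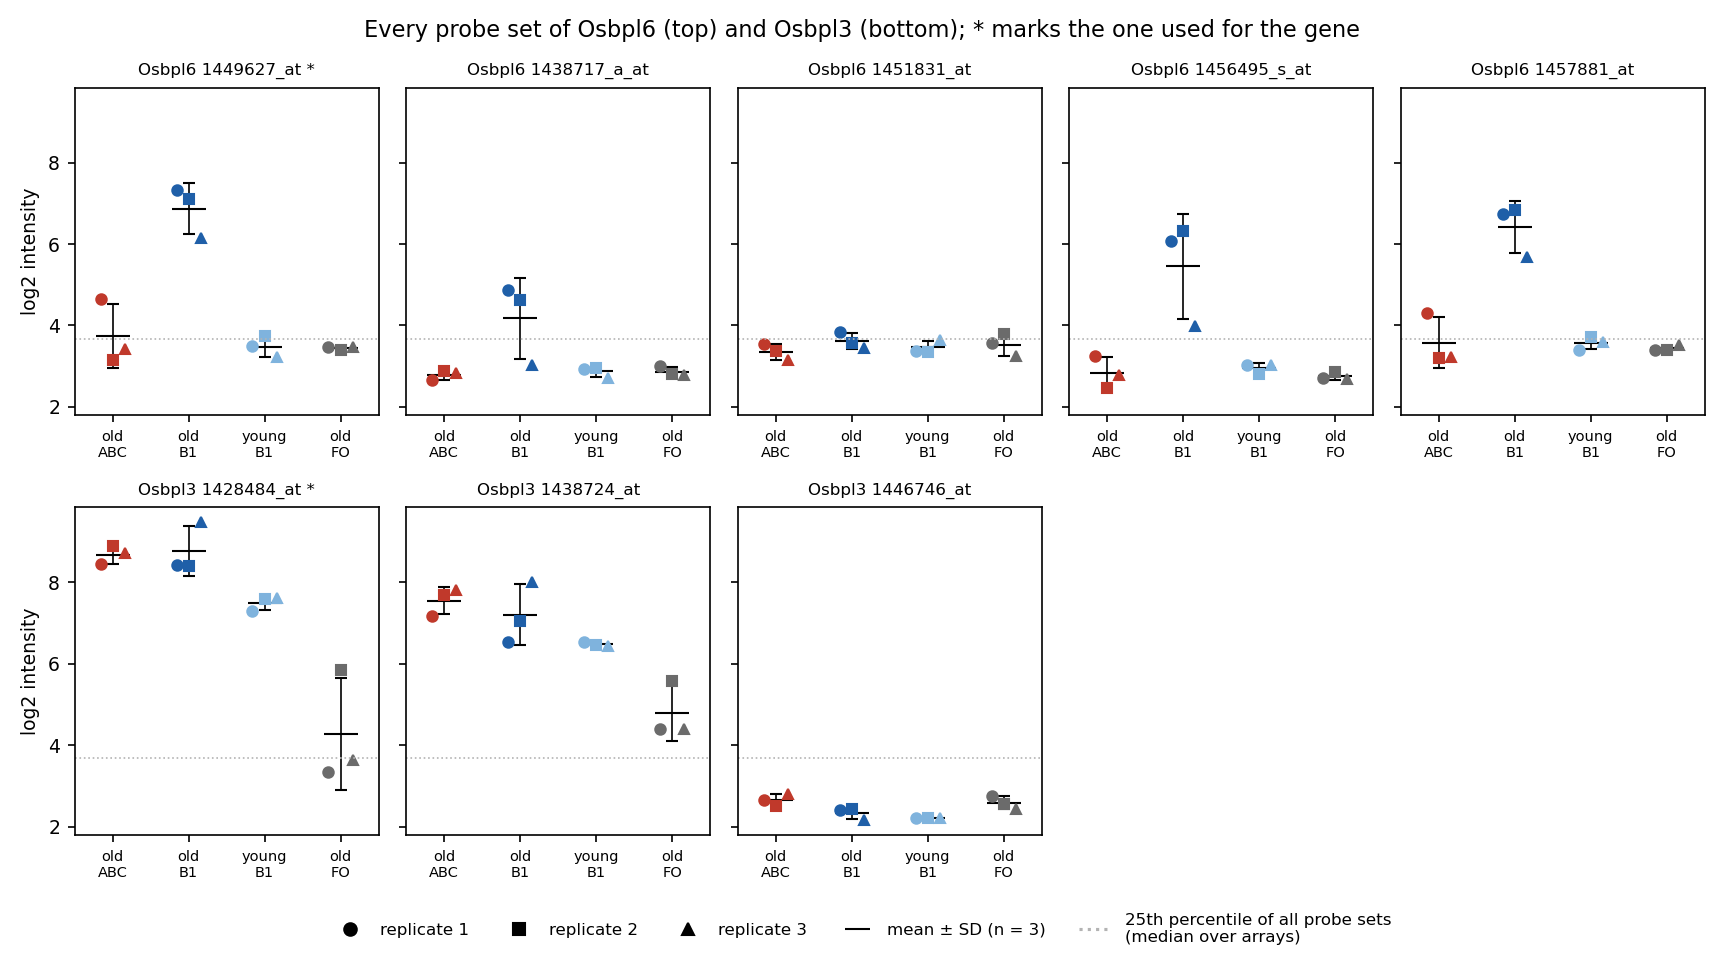
Log2 intensity on each array for every probe set of Osbpl6 (upper row) and Osbpl3 (lower row), with the 4 groups side by side, points for arrays, lines for the group mean ± SD (n = 3) and a dotted line at the 25th percentile of all probe sets. Of the Osbpl6 probe sets, 1451831_at stays between 3.15 and 3.83 while 1449627_at, 1457881_at and 1456495_s_at stand highest on the 3 old B1 arrays and 1438717_a_at on replicates 1 and 2 of that group.

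Markers of other peritoneal cells were set beside the Osbpl6 values. The 10 macrophage and monocyte genes summed to 20167, 19328 and 9387 on the old B1 arrays, against 11333, 13829 and 17384 on the young B1 arrays. The 6 mast cell genes summed to between 1886 and 4423 in old B1, against 2031 to 9417 in young B1, and the 5 mesothelial and stromal genes to 90.2 to 104, against 103 to 123. All 3 lists overlapped between ages. Old B1 replicate 3, lowest of its group for Osbpl6, was also lowest of its group for all 3 lists. That array stood apart, and was lowest of its group for the B cell identity and B1 lists too, and highest for age-associated markers. Of the macrophage genes, Cd68 was highest of the group there. The part of the macrophage, mast cell and mesothelial lists in the result was not tested. In sorted bulk RNA, fewer cells of a type and less RNA per cell cannot be told apart.

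Osbpl3 is a relative that binds VAP proteins and the small GTPase R-Ras and is known for a role in cell adhesion. Its probe set 1428484_at had 8.45, 8.89 and 8.71 in old ABC, against 3.33, 5.84 and 3.64 in old FO. It had 8.42, 8.41 and 9.48 in old B1 and 7.28, 7.58 and 7.62 in young B1. Old FO was below every other array, and its replicate 2 was the highest of that group. Osbpl3 was higher in old ABC than in old FO by 4.41 ± 0.55 (SE, 21.3-fold, limma adjusted p = 0.00051), and higher in old B1 than in old FO by 4.50 ± 0.55 (22.6-fold, adjusted p = 0.000299). Old FO replicates 1 and 3 were under their own array's 25th percentile, so the size of these folds is not exact. Without the pair of arrays that stood apart the differences were 5.20 and 4.93, with both remaining old FO arrays under that percentile.

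Old ABC and old B1 were not separated by Osbpl3. Their difference was -0.09 ± 0.55 (SE, 95% interval -1.31 to 1.14, limma adjusted p = 0.943). Every young B1 array was below every old ABC array on the chosen probe set and on 1438724_at, a comparison that was not tested. In old B1, Osbpl3 lay 1.27 above young B1 on the chosen probe set, and every old array was above every young array. Without old B1 replicate 3 the difference was 0.92. On 1438724_at the ages overlapped, with 6.53, 7.06 and 8.01 in old B1 and 6.54, 6.47 and 6.44 in young B1. That difference was 0.71, and neither was tested. That second probe set, 1438724_at, was higher in old ABC than in old FO by 2.76 (limma adjusted p = 0.0012 over all probe sets). In old B1 it was higher than in old FO by 2.40 (adjusted p = 0.002). The third, 1446746_at, lay under the 25th percentile on all 12 arrays.

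Osbpl1a encodes a sterol-binding protein of late endosomes that works with Rab7. Its probe set 1460192_at had 6.54, 6.90 and 6.96 in old ABC, against 5.53, 4.07 and 4.88 in old FO. The B1 arrays lay close to old ABC, with 6.76, 6.76 and 6.62 in old B1 and 6.69, 6.48 and 6.67 in young B1. Old FO overlapped with no other group. Osbpl1a rose by 1.98 ± 0.29 in old ABC over old FO (SE, 3.93-fold, limma adjusted p = 0.00137) and by 1.89 ± 0.29 in old B1 over old FO (3.70-fold, adjusted p = 0.00124). Old FO replicate 2 was the lowest array, and without the pair of arrays that stood apart the differences were 1.60 and 1.56. Old ABC and old B1 differed by 0.09 (95% interval -0.55 to 0.73). Probe set 1416823_a_at moved the same way by 0.75 in old ABC (limma adjusted p = 0.0413) and 0.72 in old B1 (adjusted p = 0.0307).

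Macrophage genes moved beside Osbpl3 and Osbpl1a. Of the 10 macrophage and monocyte genes, 7 were higher in old ABC than in old FO and 10 in old B1 than in old FO, with sums of 12161 to 14175 in old ABC and 9387 to 20167 in old B1, against 917 to 2157 in old FO. Adgre1 and Csf1r moved most in old ABC over old FO, by 4.27 and 3.64, and Vsig4 and Lyz2 in old B1 over old FO, by 5.40 and 4.20. The 6 B1 markers were also higher, 5 of them in old ABC and 6 in old B1. Neutrophil genes were higher in old ABC than in old FO for 5 of 8, with a median difference of 3.87, led by Camp (4.69) and Lcn2 (4.49). Mast cell genes were higher in old B1 than in old FO for 5 of 6, with a median of 4.76, led by Mcpt4 (5.95) and Cma1 (5.57), and sums of 1886 to 4423 in old B1, against 94.7 to 113 in old FO. The part of these lists in the difference was not tested. Old FO replicate 2 was highest of its group for Osbpl3 and lowest for Osbpl1a. Its macrophage sum was 1204, and its B1 sum of 1260 and T cell sum of 2046 were the highest of the group. The highest macrophage sum of the group, 2157, was on replicate 3, with 3.64 for Osbpl3 and 4.88 for Osbpl1a.

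Osbpl2, from the subfamily of Osbpl1a, carries cholesterol to the plasma membrane and binds lipid droplets. It ranged between 9.98 and 10.54 over the 12 arrays, above the 75th percentile of each, and was called in none of the 3 comparisons.

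Osbpl5 and Osbpl8 are anchored in the endoplasmic reticulum and carry phosphatidylserine to the plasma membrane in exchange for a phosphoinositide. Osbpl5 had 8.66, 8.79 and 8.92 in old ABC, against 8.09, 7.98 and 6.43 in old B1. In young B1 it had 8.33, 8.22 and 8.36, and in old FO 8.91, 8.70 and 8.90. Old B1 was below every array of the other groups, and its replicate 3 was far below the other two. Osbpl5 was higher in old ABC than in old B1 by 1.29 ± 0.35 (SE, 2.44-fold, limma adjusted p = 0.0333) and lower in old B1 than in old FO (-1.34 ± 0.35, adjusted p = 0.0237). Without old B1 replicate 3 the differences were 0.76 (adjusted p = 0.00119) and -0.80 (adjusted p = 0.000566), so both calls were kept and their size moved. The call between old ABC and old B1 was lost on leaving out any 1 array of old ABC or young B1, or old FO replicate 1 or 3, with adjusted p between 0.0505 and 0.0978. That between old B1 and old FO was lost without old FO replicate 1 (adjusted p = 0.0758) or replicate 3 (adjusted p = 0.0747).

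Beside the call between old ABC and old B1, 8 of 8 neutrophil genes were higher in old ABC (median 6.48), led by S100a8 (7.16) and Lcn2 (6.94), and 4 of 6 mast cell genes lower (median -3.26), led by Mcpt4 (-5.24) and Cma1 (-5.18). Beside the call between old B1 and old FO stood the macrophage and mast cell genes given above. Their part in the Osbpl5 differences was not tested. Osbpl5 differed by -0.05 between old ABC and old FO (95% interval -0.82 to 0.72, limma adjusted p = 0.97). Between old and young B1 the difference was -0.80, and -0.27 without old B1 replicate 3.

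Osbpl8 had 10.23, 10.31 and 10.04 in old B1, against 10.44, 11.01 and 10.72 in old FO. It had 10.14, 10.30 and 10.35 in old ABC and 10.20, 10.06 and 10.17 in young B1. Old FO was above all 9 other arrays. Osbpl8 fell in old B1 relative to old FO (-0.53 ± 0.14, SE, limma adjusted p = 0.0285), while old ABC against old FO gave -0.46 ± 0.14 (adjusted p = 0.0771). The old B1 call was lost without old B1 replicate 1 (adjusted p = 0.0579), old B1 replicate 3 (0.0636), old FO replicate 2 (0.0745) or old FO replicate 3 (0.0789). The old ABC difference was called without old FO replicate 1 (adjusted p = 0.026) or old B1 replicate 3 (adjusted p = 0.0465).

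The members that work at contacts with the Golgi did not pass the test in any comparison. Osbp, which trades cholesterol for a phosphoinositide between the endoplasmic reticulum and the Golgi, ranged between 11.14 and 11.59 over the 12 arrays. Osbpl9 and Osbpl11, which pair with each other at these contacts, ranged between 11.61 and 12.09 and between 10.86 and 11.49. All 3 were above the 75th percentile on all 12 arrays. Osbpl10, a phosphatidylserine carrier related to Osbpl11, ranged between 4.48 and 4.79 and was below the median of every array. None of these, nor Osbpl2, was called. Their 95% intervals over the 3 comparisons reached at most -0.57, for Osbpl2 in old ABC against old FO, and 0.48, for Osbpl11 in old ABC against old B1.

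The probe sets of Osbpl9 did not all follow one another. Probe set 1438614_x_at had 3.27, 3.78 and 3.80 in old ABC, against 2.69, 2.91 and 2.81 in old B1, a difference of 0.82 (limma adjusted p = 0.0268 over all probe sets), while the chosen 1423383_a_at gave -0.17. Probe set 1438614_x_at lay under the 25th percentile on 8 of the 12 arrays. Of the other Osbpl9 probe sets, 1420044_at ranged between 8.82 and 9.83, 1439283_at between 6.23 and 7.42 and 1450964_a_at between 11.39 and 11.98 over the 12 arrays. Probe set 1436027_at of Osbpl11 ranged between 10.38 and 10.95, and 1456146_at of Osbpl10 between 3.56 and 4.31. None of these 5 was called in the 3 comparisons tested. The relatives Osbp2, at 3.84 to 4.32, and Osbpl7, at 7.60 to 8.38, were called in none of the 3 comparisons.

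Genes were ranked by likeness only where their highest group mean reached 5.53, the middle log2 value over the probe sets. The 12 arrays fall in 4 groups and share that structure. Of the ranked genes, those most like Osbpl6 were Cabp4 (Pearson r = 0.951), Csrnp3 (0.940), Sorbs2 (0.922), Aldh1l2 (0.920) and Ccdc110 (0.918). Csrnp3, Aldh1l2 and Ccdc110 reached that level only in old B1, and Csrnp3 only just, with a mean of 5.54. The Osbpl6 ranking rests on the values that chose the family. Of the same ranked genes, those most like Osbpl3 were Clec2g (r = 0.991), Cacna1s (0.979), Car5b (0.979), Dusp10 (0.976) and Rhobtb1 (0.974). These are descriptions over 12 arrays.

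Genes that serve the same lipid traffic were then counted, 78 measured of 87 named, Osbp2 and Osbpl7 included. Between old ABC and old FO 10 were higher and 10 lower (25.6%), between old ABC and old B1 11 and 5 (20.5%), and between old B1 and old FO 7 and 20 (34.6%), against 9.96%, 12.8% and 16.4% of all genes. Between old and young B1, the comparison the family was picked on, 0 were called by limma, against 0.291% of all genes. Without the pair of arrays that stood apart the numbers higher and lower were 12 and 12, 10 and 10, and 12 and 19 in the first 3 comparisons. These made up 30.8%, 25.6% and 39.7%, against 16.3%, 17.5% and 22% of all genes. Between the ages 1 gene was then called, Cyp7b1 (0.75, limma adjusted p = 0.0433), named here after its value was seen. That is 1.28% of the 78, near the 1.14% of all genes called in the same fit. Macrophage, neutrophil or mast cell genes moved in each of the first 3 comparisons, as given above. Their part in the differences of the lists below was not tested.

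Of 8 anchors and partners of the ORPs, 1 was called in each of the first 3 comparisons and 0 between old and young B1, and 1 of 8 is near the share of all genes called. Rras, the GTPase bound by Osbpl3, was higher in old ABC than in old FO by 0.44 (limma adjusted p = 0.0443). Mospd3, a VAP relative, was higher in old ABC than in old B1 by 0.56 (adjusted p = 0.0331) and lower in old B1 than in old FO (-0.76, adjusted p = 0.0054). The Rras call and the first Mospd3 call were lost without the pair of arrays (adjusted p = 0.0715 and 0.0786), while Mospd1, a further VAP relative, was then lower in old B1 than in old FO (-0.75, adjusted p = 0.0044).

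Of 14 genes that supply phosphoinositides and phosphatidylserine, 1 rose and 2 fell in old ABC against old FO. In old ABC against old B1, 1 rose and 0 fell, and in old B1 against old FO 0 rose and 1 fell. The shares of all genes called were 9.96%, 12.8% and 16.4% in the same order. Pip5k1b, a phosphoinositide kinase, differed by -2.35 ± 0.47 (SE, limma adjusted p = 0.0086) in old ABC against old FO, and had group means of 5.99 in old B1 and 7.99 in old FO (adjusted p = 0.0138). Pip5k1a differed by -0.35 in old ABC against old FO, a call that was lost without the pair of arrays (adjusted p = 0.0653). Pi4k2b (adjusted p = 0.0394) and Pitpnm2 (adjusted p = 0.00306) were then called lower there, so that 1 gene was higher and 3 lower, against 16.3% of all genes called. Pitpnc1, a phosphatidylinositol transfer protein, was higher in old ABC than in old FO by 1.11 (adjusted p = 0.038), and had group means of 10.38 in old ABC and 8.88 in old B1 (adjusted p = 0.007).

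Among 18 other lipid transfer proteins, 4 rose and 1 fell in old ABC against old FO, and 6 rose and 2 fell in old B1 against old FO. In old ABC against old B1, 1 rose and 2 fell. Of all genes, 9.96%, 16.4% and 12.8% were called in these comparisons, in the order given. Plekha8, which carries glycosphingolipid precursors at the Golgi, was higher in old ABC than in old FO by 1.41 ± 0.16 (SE, limma adjusted p = 0.000285) and in old B1 than in old FO by 1.67 (adjusted p = 6.11e-05). Gramd1b, which moves cholesterol inward at the plasma membrane, was higher in old ABC than in old FO by 2.02 (adjusted p = 0.01). Esyt2, a tether of the plasma membrane, was lower in old ABC than in old FO (-0.56) and than in old B1 (-0.38). Stard3, an endosomal sterol carrier, was lower in old B1 than in old FO (-0.79) and higher in old ABC than in old B1 (0.66), where Stard5 was lower (-0.99). Npc1, which releases cholesterol from late endosomes, was higher in old B1 than in old FO by 0.49. Without the pair of arrays 5 were higher and 1 lower in old ABC against old FO, 1 higher and 5 lower in old ABC against old B1, and 9 higher and 2 lower in old B1 against old FO. The shares of all genes were then 16.3%, 17.5% and 22%.

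Of 8 genes that make or break down oxysterols, 2 rose and 1 fell in old ABC against old FO, 3 rose and 1 fell against old B1, and 1 rose and 2 fell in old B1 against old FO. Over all genes, 9.96%, 12.8% and 16.4% were called in that order. Hsd11b1, a steroid reductase, was higher in old ABC than in old FO by 1.49 and than in old B1 by 4.18, and lower in old B1 than in old FO (-2.68). Cyp27a1, the sterol 27-hydroxylase, was lower in old ABC than in old FO (-1.63) and in old B1 than in old FO (-3.04). Sult2b1, a sterol sulfotransferase, was higher in old ABC by 1.64 over old FO and by 1.84 over old B1. Cyp7b1, which breaks oxysterols down, was lower in old ABC than in old B1 (-0.83) and higher in old B1 than in old FO by 1.02.

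Of 11 oxysterol sensors and their targets, 2 rose and 3 fell in old ABC against old FO, 3 rose and 1 fell in old ABC against old B1, and 4 fell in old B1 against old FO. The same comparisons called 9.96%, 12.8% and 16.4% of all genes. Nr1h3, a nuclear receptor for oxysterols, was higher in old ABC by 1.38 over old FO and by 1.63 over old B1. Its target Abca1, a cholesterol exporter, was lower in old ABC by both comparisons (-2.04 and -2.08). Insig1 was lower in old ABC than in old FO (-0.64) and in old B1 than in old FO (-0.86). Mylip was higher in old ABC than in old B1 by 0.96 and lower in old B1 than in old FO (-0.66), as was Srebf1 (-0.74). Without the pair of arrays 3 were higher and 2 lower in old ABC against old FO, 3 higher and 2 lower in old ABC against old B1, and 3 lower in old B1 against old FO. All genes were then called at 16.3%, 17.5% and 22%.

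Of the 24 genes of cholesterol synthesis and uptake, 18 were measured. In old B1 against old FO, 10 were lower and 0 higher, with a median of -0.74 against -0.04 over all genes; Pmvk (-1.20), Sc5d (-0.79) and Lss (-0.95), all enzymes of the pathway, had the lowest p. Without the pair of arrays 8 were lower and 2 higher, and after cyclic loess 9 and 1. Of all genes, 16.4% were called in old B1 against old FO (8.02% lower), and 22% without the pair of arrays. In old ABC against old FO 3 were lower, Fdps (-1.35), Idi1 (-1.16) and Hmgcs1 (-0.62), against 9.96% of all genes called and 16.3% without the pair of arrays. Without the pair of arrays 5 were lower and 1 higher, after cyclic loess 2 were higher and 2 lower, and with each array's 75th percentile as a covariate 1 was higher and 9 lower. In old ABC against old B1, Pmvk (1.01) and Nsdhl (0.90) were higher and Cyp51 (-1.16) lower, where 12.8% of all genes were called.

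**Figure D4:**
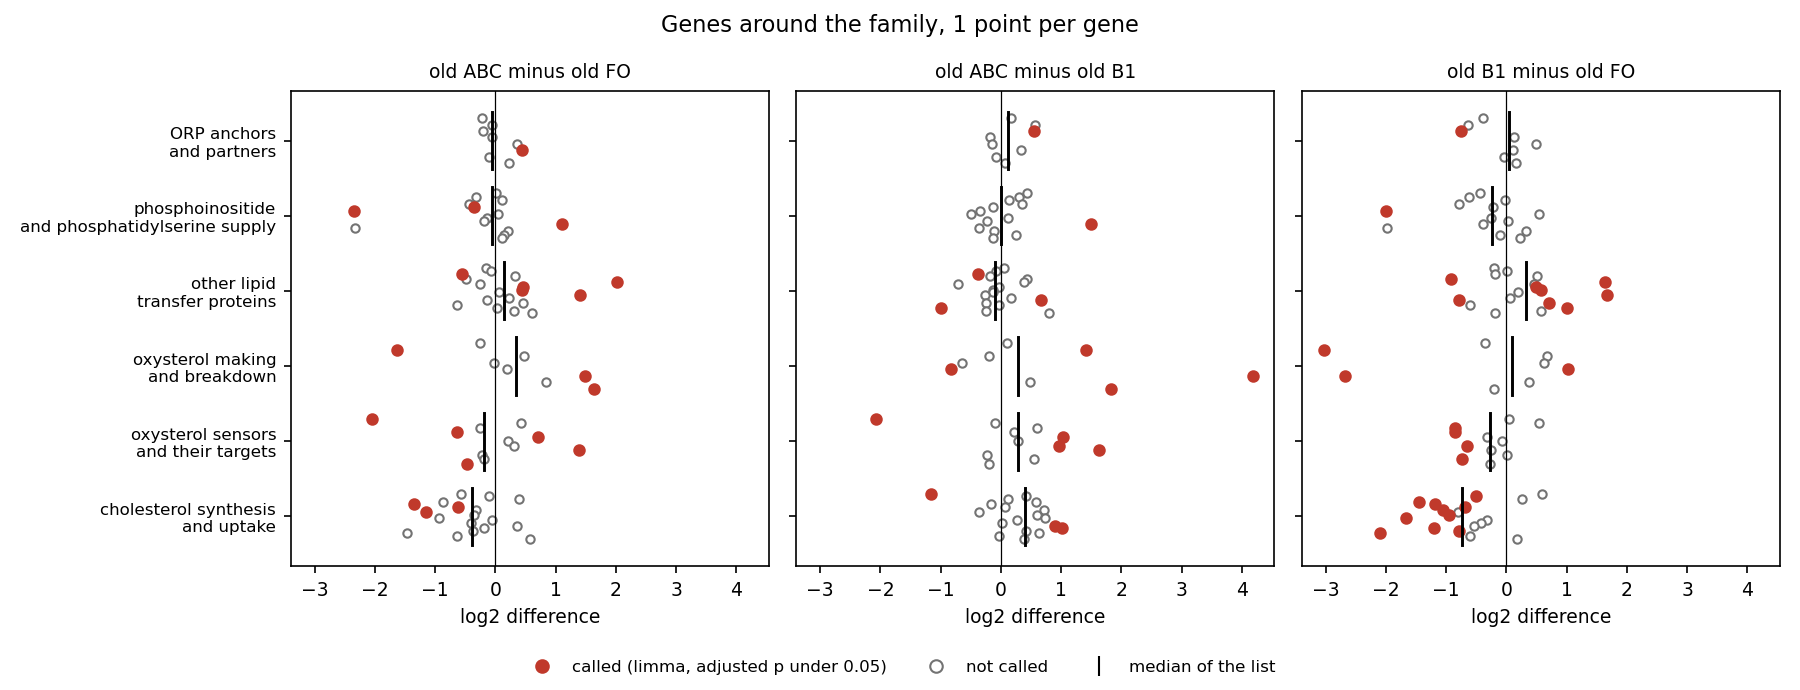
Log2 differences of the measured lipid traffic genes, a point per gene, by list in the comparisons of old ABC, old B1 and old FO, with called genes filled and a bar at each list's median. The cholesterol synthesis list lies mostly below 0 in old B1 against old FO, with a median of -0.74.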

How the data were processed

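RNA of 12 samples was measured on Affymetrix arrays. The deposited intensity values, 1 per probe set and array on a linear scale, were made by the authors with RMA in affy, per the submitters' processing notes, which give no version. The log2 of each deposited intensity was taken. Of 45037 probe sets, 34945 had 1 gene symbol, 932 several and 9160 none. The probe set with the highest mean stood for each of 18193 genes, 9010 of which had more than 1.

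Group means over all 12 arrays were fitted with limma 3.58.1 in R 4.3.3 (lmFit, eBayes), with Benjamini-Hochberg adjustment over all genes and 8 residual degrees of freedom. Figures used matplotlib 3.10.9. The number of arrays limits the precision, and the file holds no detection calls. Within-group correlations were 0.958 to 0.997, and no columns were identical.

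The members, lists and tests were chosen with earlier results of these data known. All members are named with every probe set. Of each pathway list, called genes of lowest p are named, up to 3 per comparison, with Osbp2 and Osbpl7. Of genes whose highest group mean reached 5.53, the 5 most similar are given for Osbpl6 and Osbpl3. Marker lists are given as sums, with the 2 genes of largest difference where a list stands beside a member's call; genes named on leaving out arrays were added after their values were seen. Pathway genes with no single-symbol probe set (9 of 87) were not analysed here. Alternatives covered normalization, probe set choice, weights, thresholds, the replicate number as a block and leaving out arrays. The calculation was tested on simulated data.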

Additional observations from a re-analysis of the deposited data

How the results depend on the processing

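The calls of Osbpl3 and Osbpl1a against old FO kept their direction and threshold on leaving out each of 12 arrays and under 16 other alternatives, but their size moved. Osbpl3 was 2.41 in old ABC and 2.22 in old B1 against old FO as the mean of all its probe sets, 1 of which was dim on all 12 arrays, and 3.49 and 3.58 as log2(intensity + 16). Osbpl1a was 1.36 and 1.31 as the mean of its probe sets. The number of members called between old ABC and old FO was 2, and 2 to 3 under every alternative run. Between old ABC and old B1 it was 1, with 0 when only the groups compared were fitted or at an adjusted p under 0.01, 2 with the probe set of highest variance or every probe set on its own, and 0 to 1 on leaving out single arrays. Between old B1 and old FO it was 4, with 2 when only the groups compared were fitted or at an adjusted p under 0.01, and 2 to 4 on leaving out single arrays. Osbpl9 in old ABC against old B1 turned from -0.17 to 0.82 with the probe set of highest variance. The Osbpl6 difference of old over young B1, 3.38, was 2.04 as the mean of all its probe sets, 2.29 as log2(intensity + 16) and 3.15 to 3.74 on leaving out single arrays. Osbpl8 was called in old ABC against old FO with array weights (limma adjusted p = 0.00626) or centring on the median (0.0392), and not in old B1 against old FO after cyclic loess (0.0708). The cause of these shifts was not tested. The 2 pathway alternatives, without the arrays that stood apart and under other normalizations, were chosen after seeing the data.

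Replicate numbers did not pair the samples: of 18 same-numbered pairs, 3 correlated above 0.1 (-0.39 to 0.23), and 9 of 36 matches were best with the array's own number. With replicate number as a block, 2, 0 and 4 members were called in the 3 comparisons, Osbpl5 in old ABC against old B1 having an adjusted p of 0.0565. Dim probe sets limit the size of the Osbpl6 differences.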
